A study of Homo sapiens with 6 samples.

Results

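The 39 coding genes of the human HOX clusters were followed as RNA in DLD-1, a line of human colorectal adenocarcinoma cells. They were taken by symbol, as HOXA, HOXB, HOXC or HOXD with a number from 1 to 13, from a table of 58051 genes. The HOXA cluster holds 11 of them, HOXB holds 10, and HOXC and HOXD hold 9 each. Of these, 21 passed the filter on low values, CPM (reads of a gene relative to the scaled library total) over 1 in 3 or more of 6 libraries, as did 16974 genes in all. These were 10 of 11 HOXA genes, 8 of 10 HOXB genes, 2 of 9 HOXC genes and 1 of 9 HOXD genes. A gene that is low in every library could not pass, so counts over the tested HOX genes do not speak for all members.

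Total RNA was sequenced from a single homozygously tagged line, AID-NeonGreen-TPR, in which both TPR alleles carry an auxin-inducible degron (AID) and NeonGreen, and TIR1, the ligase that auxin brings to the degron, is expressed from the RCC1 locus. TPR is a nucleoporin of the nuclear basket. The LMB group (3 libraries) received 200 nM Leptomycin B, which blocks the export receptor CRM1, for 3 h. The LMB+auxin group (3 libraries) received the same Leptomycin B for 3 h, with 1 mM auxin in the last 2 h. Both groups share the tags and Leptomycin B, so the effect of neither was measured here. The comparison asks how HOX RNA stood when auxin was added to degrade TPR while CRM1 was already blocked. No library here came from cells without the degron, so an effect of auxin itself cannot be told apart from that of TPR loss.

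HOX genes encode homeodomain transcription factors that give cells their position along the head-to-tail axis of the embryo. They lie in clusters in which the order of genes along the chromosome follows the order in which they are used along the body, with low numbers (anterior) at one end and high numbers (posterior) at the other. Posterior members pattern the hindgut, and gut epithelium keeps part of the embryonic pattern in the adult. The clusters are classic targets of Polycomb repression and of MLL-type activation, and they are dense in antisense transcripts and microRNAs.

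Sequencing depth was similar among libraries, with totals of 28261903 to 35992425 counts. TPR RNA stood at 166 ± 12.0 CPM without auxin and 187 ± 3.88 CPM with it (SD, n = 3 each), a fitted log2 fold change (edgeR) of 0.17 at an adjusted p of 0.954 without the replicate block and 0.0133 with it. The TPR RNA does not report the degradation of the protein, and no protein level was analysed here. Markers of intestinal epithelium summed to 7215 to 7776 CPM per library, with KRT8 and KRT18 highest, while fibroblast markers summed to at most 1.16 CPM, leukocyte markers to at most 2.22 CPM and endothelial markers to at most 5.64 CPM. Of the 10 intestinal markers 9 passed the filter. CDX1 did not, with 1 count in LMB+auxin replicate 3 and 0 in every other library. Samples with the same replicate number deviated together, so fits with the replicate number as a block are given beside the unblocked fit where they differ.

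Each cluster lies on 1 strand. In GRCh38, HOXA spans chr7:27092993-27200091 on the minus strand, HOXB chr17:48528526-48728750 on the minus strand, HOXC chr12:53938831-54056030 on the plus strand, and HOXD chr2:176092721-176190907 on the plus strand. The genes are compact, and 35 of 39 have 2 exons in their canonical transcript. Exons are shared between neighbours and with antisense genes. At least part of the exons of 25 members lay within exons of another gene, and for HOXA7, HOXC5 and HOXD1 that part was over 50%. Whether counting used strand, and what was done with reads over more than 1 gene, was not given in the sources used here, so the values of such genes are uncertain.

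For 20 of the 39 genes, the RefSeq sequences used here (GRCh38.p14) held a start site. The 250 bases before the start are shown for the 4 of these 20 genes that had an unadjusted p under 0.05 in the blocked fit described further down, on the minus strand of chromosome 7, read 5′ to 3′. HOXA11, HOXA13 and HOXA7 were lower with auxin and HOXA3 was higher. The windows were searched on both strands for the CCAAT box by those letters, the E box by CACGTG, the TATA box by TATAAA, the GC box by GGGCGG and a CDX-type site by TTTATG, and none of these holds another. Capitals mark the CCAAT box on either strand.
HOXA11 (chr7:27185233-27185482): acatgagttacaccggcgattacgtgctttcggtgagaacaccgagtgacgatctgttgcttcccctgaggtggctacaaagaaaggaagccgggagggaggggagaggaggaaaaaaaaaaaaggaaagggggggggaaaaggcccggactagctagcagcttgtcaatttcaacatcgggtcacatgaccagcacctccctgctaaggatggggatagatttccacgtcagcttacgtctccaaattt
HOXA13 (chr7:27200092-27200341): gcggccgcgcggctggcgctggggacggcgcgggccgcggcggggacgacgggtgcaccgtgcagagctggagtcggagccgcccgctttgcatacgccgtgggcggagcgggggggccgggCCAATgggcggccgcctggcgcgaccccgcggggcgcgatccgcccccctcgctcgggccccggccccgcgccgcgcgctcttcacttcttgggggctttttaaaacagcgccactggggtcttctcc
HOXA7 (chr7:27156676-27156925): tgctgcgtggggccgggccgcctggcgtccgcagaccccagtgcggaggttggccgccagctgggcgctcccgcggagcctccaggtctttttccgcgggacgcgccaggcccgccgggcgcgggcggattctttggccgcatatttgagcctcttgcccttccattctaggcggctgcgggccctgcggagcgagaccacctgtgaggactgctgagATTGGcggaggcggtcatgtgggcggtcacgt
HOXA3 (chr7:27152584-27152833): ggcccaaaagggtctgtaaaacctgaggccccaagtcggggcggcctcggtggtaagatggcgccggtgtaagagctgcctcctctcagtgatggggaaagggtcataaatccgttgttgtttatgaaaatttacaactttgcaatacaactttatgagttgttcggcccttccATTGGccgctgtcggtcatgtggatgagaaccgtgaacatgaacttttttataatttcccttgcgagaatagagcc
The HOXA11 window had none of these motifs, and lies inside the span of HOXA11-AS, the antisense gene. The HOXA13 window was 78% G and C, against 51.6% in HOXA11, 70.8% in HOXA7 and 48.8% in HOXA3. HOXA13 holds GGGCGG 4 times and HOXA7 holds it 2 times. HOXA3 holds TTTATG 3 times, and TATAAA and GGGCGG once each.

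CCAAT stood in 17 of the 20 HOX windows (85%), against 32.9% of the windows of 27305 genes. The E box CACGTG stood in 7 HOX windows (35%), against 6.33% of all windows. TATAAA stood in 20% of HOX windows and 11.3% of all, TTTATG in 15% and 10.1%, and GGGCGG in 50% and 41.6%. With 1 window per gene, the windows of HOXC4 and HOXC5 are the same sequence. For HOX genes the start nearest the annotated gene start was taken, at a distance of 0 to 20695 bases. For all genes the start of lowest coordinate was taken, so the shares were not drawn by the same rule. A match to these letters is a description and not a bound site.

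HOXB9, a posterior HOXB gene, was the most abundant HOX RNA per length. As RPKM, which divides CPM by the length of the gene's merged exons in kilobases, HOXB9 was at 31.2 ± 2.22 (SD over the 6 libraries), and its lowest library, 28.6, lay above the highest library of any other member. HOXB7 (18.1 ± 1.09 RPKM) and HOXB6 (17.6 ± 2.45 RPKM), central HOXB genes, came next, followed by the posterior gene HOXA9 (16.4 ± 1.56 RPKM), the central gene HOXB4 (14.6 ± 1.12 RPKM) and HOXA10 (13.2 ± 0.676 RPKM). The ranges of each neighbouring pair from HOXB7 to HOXA10 overlapped, so their order is not fixed by these libraries. HOXA10 in turn lay above HOXA13 in 6 of 6 libraries without overlap.

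The next group held HOXA13 (9.51 ± 1.58 RPKM), a posterior gene of the distal gut and limb, HOXA5 (9.41 ± 0.855 RPKM), HOXA11 (8.99 ± 1.55 RPKM) and HOXB3 (8.40 ± 0.875 RPKM), and each overlapped its neighbour. The order depends on the length used. Divided by the longest transcript instead, HOXB3 moved from rank 10 to 6 and HOXA9 from 4 to 2, while HOXB9 stayed at 1. HOXB8, HOXA6, HOXA7, HOXB5 and HOXB13 ran from 6.58 down to 3.96 RPKM. HOXA3 (1.93 RPKM) and HOXC11 (1.24 RPKM) were lower. HOXC6, HOXA4 and HOXD13 were at 0.681, 0.656 and 0.495 RPKM, with ranges that overlapped each other in this order. Levels thus ran from 31.2 to 0.495 RPKM among tested members.

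**Figure D1:**
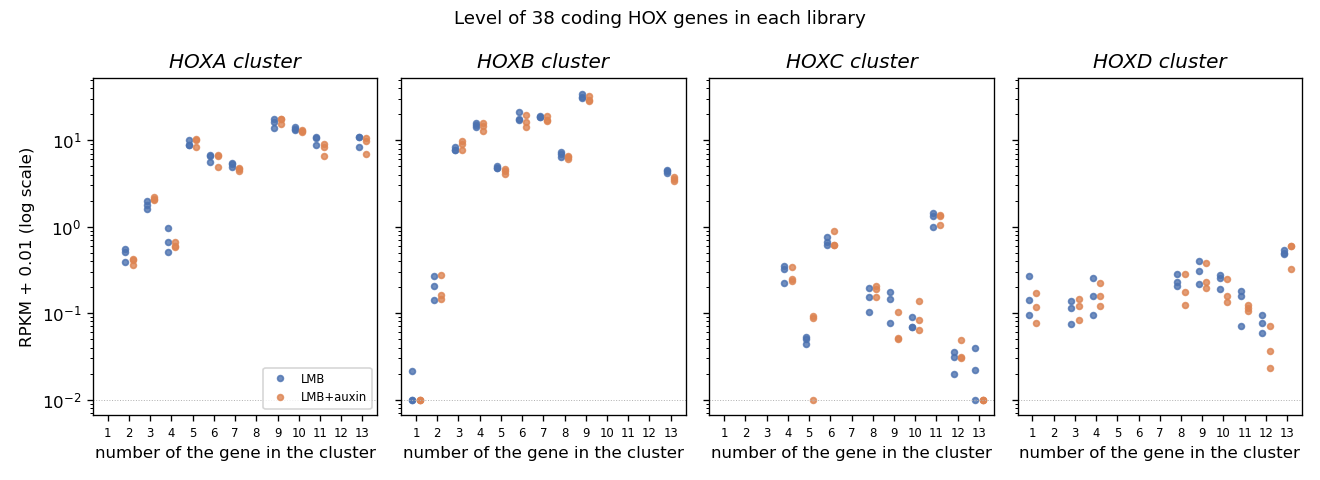
RPKM of 38 of the coding HOX genes, with 0.01 added for the log axis, in the 3 LMB and 3 LMB+auxin libraries, by cluster and gene number. Most HOXA genes and HOXB3 to HOXB13 stand above 1 RPKM, while HOXC genes other than HOXC11, and all HOXD genes, stand below it, and the points of both groups lie on each other for most genes.

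HOX RNA in these cells came mostly from the HOXA and HOXB clusters. Of the summed HOX RPKM, HOXB took 57.6% ± 2.5 without auxin and 57.2% ± 2.27 with it (SD, n = 3 each), and HOXA took 40.0% ± 2.26 and 40.5% ± 2.26. HOXC took 1.38% ± 0.125 and 1.46% ± 0.178, and HOXD 0.981% ± 0.181 and 0.908% ± 0.0949. By pair, the HOXA share went from 40.5% to 40.9%, from 37.6% to 38.0% and from 42.0% to 42.5% in replicates 1, 2 and 3. The HOXB share went from 56.9% to 56.6%, from 60.4% to 59.7% and from 55.5% to 55.2%. The HOXA share was thus slightly higher with auxin in 3 of 3 pairs and the HOXB share lower in 3 of 3, but shares of summed CPM, not divided by length, did not move one way in every pair for either cluster. No test was made of the shares. The summed HOXA level was 78.6, 68.4 and 80.1 RPKM in LMB replicates 1, 2 and 3, and 75.9, 63.7 and 76.8 RPKM in their LMB+auxin partners. Replicate 2 was the lowest in each group, and each auxin library was lower than the LMB library of the same number.

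The 18 untested members had 0 to 45 counts per library. HOXA2 was the highest of them, with 24 to 45 counts. HOXB1 had 1 count in a single LMB library and HOXC13 had 3 counts over the LMB group, and both were at 0 in all 3 LMB+auxin libraries, which allows a level of up to 0.0329 CPM over that group, as the limit that a count of 0 allows, for counting error only. None of the 18 was tested for a change. HOXC12, HOXC5 and HOXD12 had 14, 14 and 25 counts over all 6 libraries. HOXD1, HOXD3, HOXD4, HOXD8, HOXD9, HOXD10 and HOXD11 had 33 to 102 counts in sum, and HOXB2 had 89. The remaining HOXC members, HOXC4, HOXC8, HOXC9 and HOXC10, had 28 to 144.

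No HOX gene was called different between LMB+auxin and LMB. A call needed an edgeR quasi-likelihood p under 0.05 after Benjamini-Hochberg adjustment together with a change of 1.3-fold or more. By this rule 0 of 21 tested HOX genes and 1 of 16974 tested genes (0.00589%) were called. In bulk samples, fewer cells of a type and less RNA per cell cannot be told apart. DESeq2 without the block also put 0 HOX genes under an adjusted p of 0.05, where 0.0648% of tested genes stood. The fitted values were mostly below 0, with 15 lower and 6 higher (71.4% below 0, against 50.8% of all tested genes). The median log2 fold change was -0.106 over the 21 genes, against -0.0027 over all tested genes. At an unadjusted p under 0.05 stood 2 HOX genes, HOXA11 and HOXB13, against 4.37% of all tested genes (3.35% lower), and both were lower with auxin. DESeq2 and limma-voom each gave 2 such genes. Leaving out LMB replicate 2, or LMB+auxin replicate 3, brought the count to 1. The median over the 21 genes was -0.062 when LMB replicate 1 was left out and -0.066 when LMB+auxin replicate 2 was.

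The downward values lay mostly in HOXA and HOXB, which also held most of the tested genes. In HOXA 7 genes were lower and 3 higher, at a median of -0.118, and in HOXB 7 were lower and 1 higher, at -0.113. The HOXA median was -0.038 when LMB replicate 1 was left out and -0.023 when LMB+auxin replicate 2 was. The 2 tested HOXC genes, HOXC6 and HOXC11, were at 0.05 and -0.01, with 95% intervals of -0.39 to 0.49 and -0.41 to 0.39, and the only tested HOXD gene, HOXD13, was at 0.00 (-0.57 to 0.57). These wide intervals of the unblocked fit leave room for a change of 1.3-fold either way. With the block they were -0.268 to 0.346 for HOXC6, -0.264 to 0.235 for HOXC11 and -0.419 to 0.413 for HOXD13. Of these, only the interval of HOXD13 leaves such room. By position, the 9 central members of HOXA and HOXB (numbers 4 to 8) were lower in 8 cases and higher in 1, at a median of -0.109. The 6 posterior members (9 to 13) were lower in 5 cases and higher in 1, at a median of -0.123. Among tested anterior members (1 to 3), HOXA3 and HOXB3 stood above 0.

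**Figure D2:**
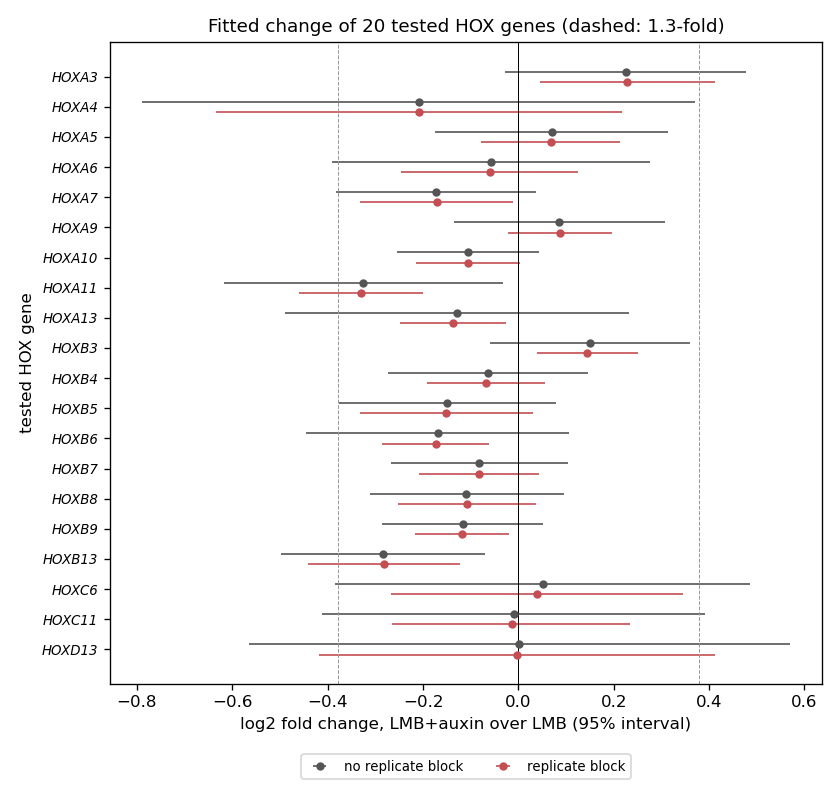
Fitted log2 fold change, LMB+auxin over LMB, of 20 of the tested HOX genes, with 95% intervals, without and with the replicate block, and dashed lines at 1.3-fold. The block narrows most intervals and hardly moves the points, and those of HOXA11 and HOXB13 lie wholly below 0 in both fits.

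Blocking on the replicate number narrowed the errors without a HOX call. The block called 0 of 21 HOX genes, against 202 of 16974 genes (1.19%). An adjusted p under 0.05 alone was met by 2 HOX genes, against 4.39% of all tested genes (3.27% lower), and both fell by less than 1.3-fold. At an unadjusted p under 0.05 stood 9 of 21 HOX genes (42.9%), against 19.9% of all tested genes. Of these 9, 7 were lower (11.8% of all tested genes) and 2 were higher (8.11%). Without replicate 2 of both groups the count was 3, and without replicate 3 it was 5. With DESeq2 and the block, no HOX gene had an adjusted p under 0.05, which 0.548% of tested genes had (HOXA4, HOXC6, HOXC11 and HOXD13 were among those with no adjusted value), and 4 HOX genes had an unadjusted p under 0.05. Of the 21 genes, 10 were lower in 3 of 3 pairs (20.5% of all tested genes) and 2 were higher in 3 of 3 (21.3%). The groups did not overlap in CPM for 5 genes that were lower (6.63% of all tested genes), HOXA7, HOXA10, HOXB5 and HOXB13 among them, and for HOXA3, which was higher (4.89%).

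HOXA11, a posterior gene whose product patterns the limb and the reproductive tract, gave the smallest p among the HOX genes in the blocked fit. HOXA11 (ENSG00000005073, chr7:27181157-27185232) was at 28.8, 23.2 and 28.1 CPM in LMB replicates 1, 2 and 3, and at 24.3, 17.6 and 22.0 CPM with auxin. All 3 pairs were lower with auxin, and the groups overlapped, with replicate 2 the lowest of each. The fitted log2 fold change (edgeR) was -0.33, SE 0.13, at an adjusted p of 0.954, and with the block -0.33, SE 0.065, at an adjusted p of 2.7e-04. With DESeq2 and the block its adjusted p was 0.0624. In the blocked fit it was 1.0e-04 without replicate 1, 0.0370 without replicate 2 and 0.0906 without replicate 3. Without replicate 1 the blocked log2 fold change (edgeR) was -0.373, just short of a 1.3-fold fall. Over all alternatives the adjusted p ran from 3.5e-05 to 1.

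HOXA11-AS, an antisense RNA whose exons cover 27.2% of the exon bases of HOXA11, was the only tested gene inside the clusters, apart from the coding HOX genes, with an adjusted p under 0.05 in the blocked fit (edgeR). It was at 17.0, 14.2 and 15.4 CPM without auxin and 13.6, 11.9 and 13.9 CPM with auxin, with a log2 fold change of -0.24 and an adjusted p of 0.0466 with the block (edgeR). Each auxin library of HOXA11-AS was lower than its LMB partner. How reads over both genes were counted is not known here, so their values are uncertain, and the part of each gene in the other's counts was not tested.

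HOXB13, the posterior end of the HOXB cluster and known for its place in prostate and distal colon, was lower with auxin. HOXB13 (ENSG00000159184, chr17:48724763-48728750) was at 13.4, 13.8 and 12.5 CPM without auxin and 10.3, 11.5 and 10.8 CPM with auxin. The groups did not overlap. The fitted log2 fold change (edgeR) was -0.28, SE 0.095, at an unadjusted p of 0.0148 and an adjusted p of 0.954, which was 0.0237 with the block. Its exons are not shared with any annotated gene. The blocked adjusted p (edgeR) was 0.14, 0.136 and 0.172 with replicate 1, 2 or 3 left out, 0.392 with DESeq2 and the block, and ran from 0.0102 to 1 over all alternatives.

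HOXB6, a central HOXB gene, was at 55.0, 44.7 and 45.6 CPM without auxin and 50.5, 36.8 and 41.9 CPM with auxin. Every pair was lower with auxin while the groups overlapped. The blocked log2 fold change (edgeR) was -0.17, SE 0.057, at an adjusted p of 0.0557. This adjusted p was 0.0190, 0.453 and 0.38 with replicate 1, 2 or 3 left out, and 0.379 with DESeq2 and the block. Over all alternatives it ran from 0.019 to 1. HOXB6 shares 16.6% of its exon bases with HOXB3 on the same strand and 16.3% with genes on the opposite strand.

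HOXA13 and HOXB9, posterior members, had unadjusted p-values under 0.05 with the block but not after adjustment (edgeR). HOXA13 was at 54.4, 42.0 and 54.8 CPM without auxin and 50.1, 35.0 and 53.1 CPM with auxin. Its replicate 2 libraries were the lowest of each group, as for HOXA11. HOXB9 was at 80.2, 89.1 and 82.6 CPM without auxin and 74.7, 83.7 and 73.9 CPM with auxin. Its pairs were all lower with auxin, by 0.10, 0.09 and 0.16 on the log2 scale, and the groups overlapped.

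HOXA7, a central gene, was at 12.99, 11.8 and 12.6 CPM without auxin and 11.2, 10.6 and 11.5 CPM with auxin. These groups did not overlap, but 62.5% of the exon bases of HOXA7 lie in HOXA-AS3, so the values are uncertain. With the block the adjusted p was 0.214 (edgeR).

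HOXA3 and HOXB3, paralogues of group 3 that pattern the pharyngeal region, stood higher with auxin. HOXA3 was at 8.46, 6.93 and 7.60 CPM without auxin and 8.89, 8.62 and 9.35 CPM with auxin, with no overlap between the groups. HOXB3 was at 62.0, 57.8 and 57.5 CPM without auxin and 73.2, 56.8 and 66.7 CPM with auxin. HOXB3 was thus higher in replicates 1 and 3 and slightly lower in replicate 2. Their log2 fold changes with the block were 0.23 with a standard error of 0.093 and 0.14 with a standard error of 0.053, at adjusted p-values of 0.141 and 0.101 (edgeR). HOXA3 shares 19.9% of its exon bases with other genes, the largest part with HOXA-AS2, and HOXB3 shares 11.7%.

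**Figure D3:**
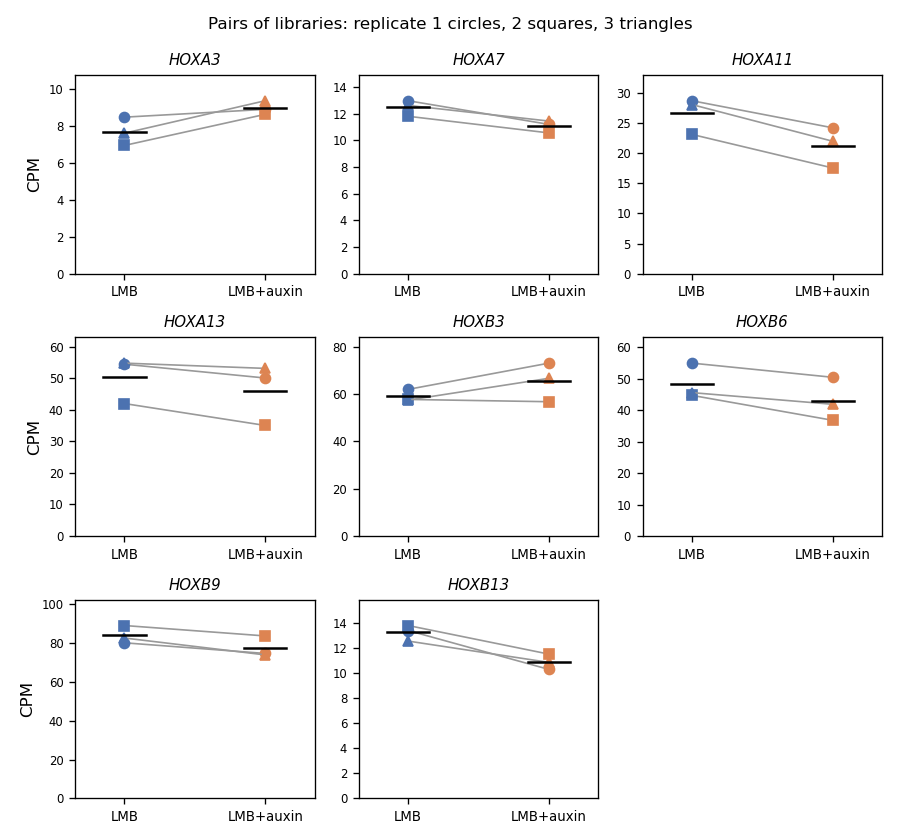
CPM of 8 of the HOX genes with an unadjusted p under 0.05 in the blocked fit, in each LMB library and the LMB+auxin library of the same number, joined by a line, with the mean of each group as a bar. The lines of HOXA11, HOXB13, HOXB6, HOXB9, HOXA13 and HOXA7 all slope down, those of HOXA3 slope up, and 1 of the 3 lines of HOXB3 slopes slightly down.

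The other 12 tested members did not reach an unadjusted p under 0.05 in the blocked fit (edgeR). HOXA10 (50.5, 49.0 and 52.9 CPM without auxin and 47.3, 45.7 and 48.6 CPM with auxin) and HOXB5 (9.26, 8.82 and 8.73 CPM, and 8.52, 8.07 and 7.60 CPM) did not overlap between groups, yet their blocked adjusted p-values were 0.268 and 0.352 (edgeR). HOXB8 was also lower in 3 of 3 pairs, at a log2 fold change of -0.11. HOXA9 was higher in 3 of 3 pairs, at 0.09, and HOXA5 in 2 of 3, at 0.07. Without the block HOXB4 was at -0.06, HOXB7 at -0.08, HOXA6 at -0.06 and HOXA4 at -0.21. The 95% intervals of all genes named in this paragraph span 0 in both fits (edgeR). HOXA4 was low, at 0.863 to 1.66 CPM. Its interval ran from -0.79 to 0.37 without the block and from -0.635 to 0.217 with it.

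Genes in and beside the clusters were set against the HOX genes. Of 58 other annotated genes inside the clusters, mostly antisense and long noncoding RNAs, 27 were tested. Their median log2 fold change was -0.031, with 17 lower (63.0%), 10 higher and 0 called. Of all tested genes 50.8% were lower, at a median of -0.0027. An unadjusted p under 0.05 (edgeR) was reached by 2 of the 27, against 4.37% of all tested genes. Among the 27, the unnamed genes ENSG00000274864 and ENSG00000257184 had the highest RPKM, at log2 fold changes of -0.29 and 0.03. The 24 nearest tested coding genes beside the clusters, 3 on each side, were lower in 5 cases (20.8%) and higher in 19. Their median was 0.051, with 0 called. The most abundant of these, HNRNPA1, encoding an RNA-binding protein, and TAX1BP1, encoding an autophagy receptor, were at 0.06 and 0.08. The sets were not tested against each other.

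**Figure D4:**
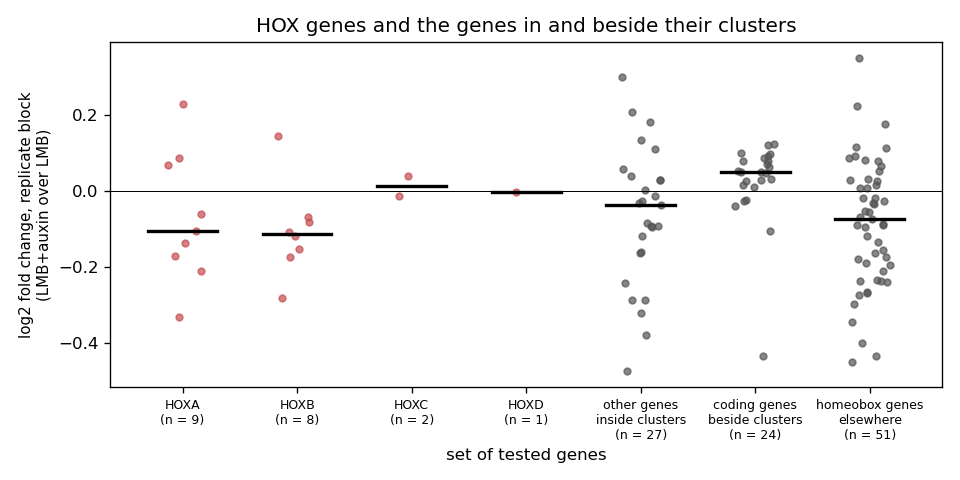
Log2 fold change, LMB+auxin over LMB, with the replicate block, of 20 of the tested HOX genes by cluster (red), of other genes inside the clusters, of coding genes beside them and of homeobox genes elsewhere (gray), with the median of the points shown as a bar. The HOXA and HOXB medians lie below 0, those of HOXC and HOXD near 0, and the genes beside the clusters mostly above 0.

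The microRNA miR-196a-5p is encoded in the HOXB cluster (MIR196A1, inside the span of HOXB7) and in HOXC (MIR196A2), and miR-196b-5p, with the same seed (bases 2 to 8, in capitals), in HOXA. Targets of this family include HOX messages, so its sequence is shown (RefSeq, GRCh38.p14).
miR-196a-5p: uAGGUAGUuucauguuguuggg
miR-196b-5p: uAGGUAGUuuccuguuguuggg
Letters complementary to the seed, ACTACCT, stand in the part after the coding sequence of 8 of the 39 HOX genes in their longest coding transcript, HOXA5, HOXA7, HOXA9, HOXB1, HOXB6, HOXB7, HOXB13 and HOXC8, and in 6 of the 21 tested (28.6%), against 8.22% of 12492 tested coding genes, without regard to length. HOXA7 holds it 4 times and HOXB13 once. The site of HOXA7 with the most paired bases, 15 of 22, and that of HOXB13 are shown as DNA letters, with the seed match in capitals.
HOXA7 site: cctactcccctaaaACTACCTa
HOXB13 site: gggccgcggccgccACTACCTc
The tested genes that hold the letters were at log2 fold changes from -0.28 (HOXB13) to 0.09 (HOXA9), and MIR196A1 itself, read as host RNA in these libraries, was at 0.10. Mature microRNAs were not analysed here.

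In the lists of genes that act on HOX genes or with them, no gene was called. Before adjustment and with no block, a p under 0.05 (edgeR) was reached by 1 HOX cofactor, 1 Polycomb gene and no other gene of these lists. Of all tested genes 4.37% reached it. HOX cofactors, PBX and MEIS-type proteins that bind DNA with HOX products, had 7 of 9 members tested, with a median of -0.004 and 0 called, and PBX2 and PKNOX1, the most abundant, were at log2 fold changes of -0.05 and 0.18. CDX2, the caudal gene that sets intestinal identity and regulates HOX genes, was at 136 CPM without auxin and 143 CPM with auxin, at a log2 fold change of 0.08. PDX1, the other tested caudal or ParaHox gene, was low, at 1.244, 1.406 and 1.968 CPM without auxin and 1.246, 1.265 and 1.036 CPM with auxin. Its log2 fold change was -0.40, with an adjusted p of 0.954 (edgeR). The 14 genes of MLL/COMPASS and DOT1L, which lay down marks of active genes, had a median of 0.028 and 0 called, with DPY30 and PSIP1 most abundant, at 0.03 and 0.06.

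The 29 Polycomb genes, whose products keep HOX genes silent, were balanced, with 14 lower and 15 higher, a median of 0.000 and 0 called. BMI1 and RBBP7 were the most abundant, at log2 fold changes of 0.03 and 0.04. CBX2 was the only Polycomb gene with an adjusted p under 0.05 with the block, at -0.19 and 0.0414 (edgeR), under 1.3-fold. The 8 H3K27 demethylases and boundary factors had a median of 0.037 and 0 called, with SMC1A and STAG1, of the cohesin complex, at 0.05 and 0.10. The retinoic acid receptors and enzymes had 7 of 12 members tested, a median of 0.030 and 0 called, with RARG and RXRB at -0.02 and -0.13.

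Homeobox genes outside the clusters had 51 of 116 members tested. Without the block 34 were lower (66.7%, against 50.8% of all tested genes) and 17 higher, with a median of -0.076 and 0 called. With the block 1 was called, IRX3, an Iroquois factor, against 1.19% of all tested genes. IRX3 was at 5.04, 6.14 and 4.46 CPM without auxin and 3.87, 3.08 and 4.39 CPM with auxin. Its blocked log2 fold change was -0.45, with an adjusted p of 0.0211 (edgeR). IRX3 was lower in 3 of 3 pairs, and by less in replicate 3. Leaving out replicate 2 of both groups ended this call, and DESeq2 with the block gave IRX3 no adjusted p and called 0 genes of these lists. With the block, an adjusted p under 0.05 alone was met by 2 genes of this list, against 4.39% of all tested genes. The other was MSX2, at -0.30. TGIF1, one of the most abundant, was at 0.08.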

How the data were processed

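RNA-seq of total RNA after ribosomal RNA removal was made in 6 libraries from independent cultures. Per the labels, the authors deposited raw counts, whole numbers by Ensembl gene with no scaling; the processing notes name CASAVA 1.8.2, STAR 2.6.1c, featureCounts 1.5.2 and GRCh38. For strand and read overlap, the counting settings are not given in the sources used here; genes lying inside exons of another had a median count ratio of 1.48 per base on opposite strands (196 pairs) and 0.478 on the same strand (81 pairs), which does not settle them. Symbols, coordinates and lengths come from GENCODE 44.

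Groups follow the treatment labels. Counts of 16974 genes with CPM above 1 in at least 3 libraries, from totals of 28261903 to 35992425, went into edgeR 4.0.16 (R 4.3.3, quasi-likelihood test) after TMM scaling, group only, with Benjamini-Hochberg adjustment over all these genes, and tested on simulated data. Alternatives used DESeq2 1.42.0, limma 3.58.1 and the settings listed in the closing section. Library deviations from group means correlated at 0.531, 0.691 and 0.273 for same-numbered libraries, and at -0.573 to 0.146 for libraries of unlike number. The numbers were therefore used to pair the samples, though replicate 3 stood least apart. They come from the titles, which do not state a pairing. The genes named were every tested coding HOX gene, TPR and, of each list, genes called in either edgeR fit and the 2 with the highest mean RPKM; CBX2, MSX2, MIR196A1 and HOXA11-AS were chosen after their values were seen. The members and lists were chosen with earlier results of these data known. Results of some genes are not reported here.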

Additional observations from a re-analysis of the deposited data

How the results depend on the processing

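No HOX gene was called under any of the alternatives tried. Over 20 alternatives for each of 21 genes, 394 of 420 fitted values kept their sign and 26 did not, 18 of them with a replicate left out, and 14 genes kept theirs throughout. The block raised the HOX genes at an unadjusted p under 0.05 from 2 to 9, DESeq2 with the block gave 4, and the block gave 9 with RLE scaling and 10 with library size alone or upper quartile scaling. Of the other lists, 1 gene was called with the block, 1 under each of these scalings with it, and 0 with DESeq2 and the block. Without members that share over 50% of their exon bases the median was -0.094. Among HOX genes and the other lists, the block changed no other call. Over all 16974 tested genes, 1 was called without the block and 202 with it. The additional fits with the block and the median without members that share exons were chosen after seeing the data.

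HOXD13, at a fitted 0.002, was -0.003 with the replicate block, -0.035 with DESeq2 and the block, -0.052 with limma-voom, -0.006 with upper quartile scaling, -0.007 with library size alone, -0.014 with the block and library size alone and -0.011 with the block and upper quartile scaling. HOXC11 was 0.004 with DESeq2 and the block. The cause was not tested.

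Leaving out 1 library at a time gave 1 to 3 HOX genes at an unadjusted p under 0.05, and medians of -0.131 to -0.062 over all members, -0.169 to -0.023 in HOXA and -0.113 to -0.076 in HOXB. Leaving out a replicate of both groups with the block gave 3 to 9 genes (5 without replicate 3) and medians of -0.112 to -0.076, -0.145 to -0.086 and -0.132 to -0.096. In the other lists of genes, these fits called 0 or 1 gene. With single libraries out, HOXC11 ran from -0.154 to 0.105, HOXD13 from -0.134 to 0.242 and HOXC6 from -0.152 to 0.153, and with a replicate of both groups out and the block, HOXC11 from -0.212 to 0.167 (0.024 without replicate 1), HOXD13 from -0.168 to 0.220 (-0.081 without replicate 1) and HOXC6 from -0.069 to 0.125. Over all of these the other genes that changed sign ranged from -0.392 to 0.057 in HOXA4, -0.141 to 0.079 in HOXA6, -0.238 to 0.036 in HOXA13 and -0.135 to 0.023 in HOXB4. With 3 libraries per group, the smallest p of an exact permutation test is 0.1, and low counts limit HOXC and HOXD.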
